A study of Mus musculus with 32 samples.

Results

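Irradiation was examined in Oct-1 mutant mouse embryonic fibroblasts by setting irradiated cells against unirradiated cells of the same genotype. The samples were chosen by their labels alone, which gave 16 of the 32 samples of the series: 4 unirradiated and 4 irradiated replicates, each measured on array A and again on array B, a pair of Affymetrix expression arrays with largely different probe sets. The other 16 samples are wild type fibroblasts in the same 2 states. All cells were early passage primary cultures, and total RNA was measured. The unirradiated group carried the Oct-1 mutation with no treatment named, and the irradiated group carried the same mutation and received radiation. The sources used here give neither the radiation dose, the time from irradiation to harvest, the nature of the mutant allele nor the origin of the replicates, so the p-values below measure only the spread between these samples, which may be technical. The title numbers form 2 runs, with replicates 1 and 2 in the first and replicates 3 and 4 in the second. On array A the label of unirradiated replicate 1 carries no replicate number, and the number of its array B counterpart was used.

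Radiation breaks DNA, and the kinases that sense the breaks stabilise the transcription factor p53. p53 switches on its own inhibitors, genes that halt the cell cycle and genes that prepare cell death, while the arrest protein p21 lets pocket proteins shut down the genes that cells need for mitosis. Oct-1, encoded by Pou2f1, is a widely expressed POU domain factor that binds the octamer motif, and fibroblasts lacking it have been studied for their sensitivity to genotoxic and oxidative stress. Pou2f1 itself, Trp53, Bax, Gdf15 and Ccnb1 are not analysed here.

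Values are the authors' log2 probe set values, and every change below is a log2 difference, irradiated minus unirradiated, with its standard error (SE) from limma over 4 arrays per group and the run as a block. A probe set was called, and is said to have risen or fallen, at a Benjamini-Hochberg adjusted p under 0.05. With 1 probe set per gene, 1200 of 12509 genes were called in the mutant (9.59%), of which 729 rose (5.83%) and 471 fell (3.77%). The median change was 0.39 among the rises and -0.40 among the falls, against 0.02 over all genes. Changes beyond 2-fold were few, with 66 rises (0.528%) and 24 falls (0.192%). The 4 irradiated values all lay beyond the 4 unirradiated ones for 498 of the rises and 283 of the falls, where 6.13% of all genes were higher and 3.44% lower in that way.

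Array A gave 1702 calls among 13576 probe sets (12.5%), 983 rises (7.24%) and 719 falls (5.3%), and array B 225 calls among 13507 (1.67%), 155 rises (1.15%) and 70 falls (0.518%). All 1927 called probe sets had the same sign in both runs, but the calls were made on both runs together, which favours a shared sign. Without the run as a block array A gave 382 rises and 250 falls, and array B 66 and 26. On array B the falls numbered 41 without irradiated replicate 1 and 151 without unirradiated replicate 4, and the rises 94 without unirradiated replicate 1. Of 17 fibroblast markers 17 were above the filter on low values, and their summed log2 level ran from 194.4 to 200.8 in unirradiated and from 192.2 to 198.9 in irradiated arrays. Among them 4 fell (Pdgfra, Pdgfrb, Prrx1 and Twist1), where 3.77% of all genes fell. Fbln2 rose by 0.20 (SE 0.06), a call lost on 6 of the 8 omissions of 1 array, and its array B probe set did not pass at 0.07. The markers of the other cell types were mostly under the filter: 4 of 16 macrophage and blood, 2 of 14 muscle, 4 of 9 adipocyte, 3 of 11 cartilage and bone, 2 of 11 endothelial and 5 of 10 epithelial markers passed it and 0 of these were called (1 macrophage marker without irradiated replicate 1). Of 13 neural markers 7 passed and 1, Nes, was called, a call lost on 6 of the 8 omissions of 1 array. As a sign of RNA quality, the 3 prime minus 5 prime log2 difference of the Gapdh control probe sets had a mean of -0.0758 in unirradiated and 0.0435 in irradiated arrays on array A (exact permutation within runs, two-sided p = 0.0556, the smallest that 36 arrangements allow), and its part in the results was not tested. On array B the Gapdh difference was 0.0176 higher in irradiated arrays (p = 0.722, exact permutation), and the beta-actin difference changed by -0.0238 on array A (p = 0.444, exact permutation) and by -0.0389 on array B (p = 0.222, exact permutation).

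Genes of the p53 pathway rose in the irradiated mutant cells. Of the 15 tested genes that feed back on p53 or regulate it, 8 rose and 0 fell, with a median of 0.30. Mdm2, the ubiquitin ligase that marks p53 for destruction, stood at 10.25, 10.09, 9.78 and 9.85 in unirradiated replicates 1 to 4 and at 12.19, 12.02, 11.05 and 11.12 in irradiated replicates 1 to 4. Every irradiated value was above every unirradiated one, and the irradiated cells of the first run were higher than those of the second. The rise was 1.60 (SE 0.14, adjusted p = 3.632e-07), or 3.03-fold, and it was 1.93 in the first run and 1.26 in the second. A second Mdm2 probe set rose by 1.34. Pidd1, a death domain protein that assembles with caspase-2, was between 5.51 and 5.66 before and between 6.70 and 7.25 after irradiation, a rise of 1.30 (SE 0.16, adjusted p = 2.214e-05). Trp53inp1, a nuclear cofactor of p53, rose by 1.28 (SE 0.16) and Ppm1d, the phosphatase that turns the damage kinases and p53 off again, by 0.85 (SE 0.17). Phlda3, an inhibitor of AKT, rose by 0.60 (SE 0.08), and Zmat3, an RNA binding p53 target, by 0.55 (SE 0.08). Mdm4, the partner of Mdm2, did not pass at 0.10 (SE 0.11), nor did Cop1, another ubiquitin ligase for p53, at -0.01. Without the run block 5 of the 8 calls remained.

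Genes that hold the cell cycle moved in both directions. Of 20 tested arrest genes and inhibitors of cyclin-dependent kinases (CDKs), 6 rose and 3 fell, with a median of 0.23. Cdkn1a, which encodes the CDK inhibitor p21, read 11.02, 11.16, 11.51 and 11.73 in the unirradiated and 12.43, 12.74, 12.63 and 12.55 in the irradiated replicates. The irradiated arrays differed little from each other, while the unirradiated arrays of the second run were already higher than those of the first. Cdkn1a rose by 1.23 (SE 0.12, adjusted p = 1.461e-06) on this probe set and by 1.55 (SE 0.15) on a dimmer one. The promoter of Cdkn1a, a standard p53 target, is shown because it alone among risen genes had a match in the search described next. It runs from 170 bases before to 30 bases after the start of transcription, from RefSeq on GRCm38.p6, plus strand, chr17:29090809-29091008. Capitals mark a match to a pair of p53 sites of 10 bases with at most 13 bases between them, and include the bases between. The 10 bases that follow the capitals miss the searched site only at their first base. Which stretch p53 binds was not tested, and the search was added after the data were seen. No other risen gene had such a match in its window of 300 bases around the start.
Cdkn1a: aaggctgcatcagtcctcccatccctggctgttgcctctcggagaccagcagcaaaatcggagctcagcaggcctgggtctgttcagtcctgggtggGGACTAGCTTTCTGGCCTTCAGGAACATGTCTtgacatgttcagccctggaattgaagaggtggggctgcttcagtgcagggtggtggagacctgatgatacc

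Other arrest genes rose with Cdkn1a. Rprm, a p53 target that holds cells in G2, went from 6.52, 6.26, 6.93 and 7.15 to 8.32, 8.32, 8.12 and 8.36, a rise of 1.57 (SE 0.17, adjusted p = 7.496e-06). Ptprv, a receptor-like phosphatase known as a p53 target, read 6.49, 6.19, 7.30 and 7.39 in unirradiated and 7.97, 8.10, 8.33 and 8.64 in irradiated replicates, a rise of 1.42 (SE 0.16, adjusted p = 1.18e-05). Both genes had non-overlapping groups and lower unirradiated values in the first run than in the second. Btg2, an antiproliferative cofactor of mRNA decay, was nearly the same in all arrays of a group, at 9.58 to 9.77 before and 10.66 to 10.79 after, and rose by 1.02 (SE 0.08, adjusted p = 1.348e-07). Tob1, of the same family, rose by 0.48 (SE 0.12). Inhibitors of growth moved the other way as well: Gas1, a membrane protein of quiescent cells, fell by 1.01 (a dim probe set did not pass at -0.06), Cdkn2d, an inhibitor of CDK4 and CDK6, by 0.93 (SE 0.10) and Cdkn1b, which encodes p27, by 0.67 (SE 0.12, with overlapping groups). Gadd45a, a damage response gene often named with Cdkn1a, did not pass at 0.02 (SE 0.11). Without the run block 4 of the 6 rises and 1 of the 3 falls were called.

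Death genes rose and none of the tested ones fell. Of 35 genes of the apoptosis list 14 rose (median of all 35, 0.12), and 13 of these 14 were called without the run block. Pmaip1, which encodes the BH3-only protein Noxa, read 4.80, 5.01, 5.98 and 5.89 in unirradiated and 7.81, 7.82, 8.02 and 7.73 in irradiated replicates. The irradiated arrays lay within 0.3 of each other, while the unirradiated ones separated by run, so that the rise was 2.91 in the first run and 1.94 in the second. Over both runs Pmaip1 rose by 2.43 (SE 0.19, adjusted p = 1.467e-07), or 5.37-fold. Dapk1, a calcium-dependent death kinase, went from 6.59, 6.66, 7.0 and 6.61 to 8.55, 8.66, 8.71 and 8.38 (1.86, SE 0.12, adjusted p = 1.683e-08). Fas, the death receptor, went from 6.49, 6.74, 7.16 and 7.63 to 8.07, 8.47, 8.48 and 8.23 (1.31, SE 0.20, adjusted p = 0.0002701). The groups were apart for both, and the unirradiated Fas values covered a wider range than the irradiated ones.

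The remaining risen death genes sat at several points of the pathway. At the membrane, the receptors Eda2r (1.32, SE 0.17) and Tnfrsf10b (0.62, SE 0.15) and the junction protein Perp (1.18, SE 0.15) rose. Among the BH3-only proteins, which trigger the mitochondrial step, Bcl2l11 rose by 0.72 (SE 0.12) and Bbc3, which encodes Puma, by 0.53 (SE 0.09). Apaf1, the scaffold of the apoptosome, rose by 0.87 (SE 0.10), and a dimmer probe set of it by 1.39 (SE 0.18). Ei24, an outer membrane p53 target, was at 10.60 to 10.70 before and 11.44 to 11.49 after irradiation, one of the tightest pairs of groups in the list, and rose by 0.81 (SE 0.06). Aen, a nuclease, Siva1, a death receptor partner, and Dffb, the nuclease that cuts DNA in dying cells, rose by 0.41, 0.52 and 0.62. Cflar, which blocks the death receptor caspase, rose as well (0.47, SE 0.10). The caspases tested did not pass, at 0.04 for Casp2, 0.09 for Casp8 and 0.05 for Casp9, nor did the protective Bcl2 (-0.29, SE 0.17), Bcl2l1 (0.22) and Mcl1 (0.06).

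**Figure D1:**
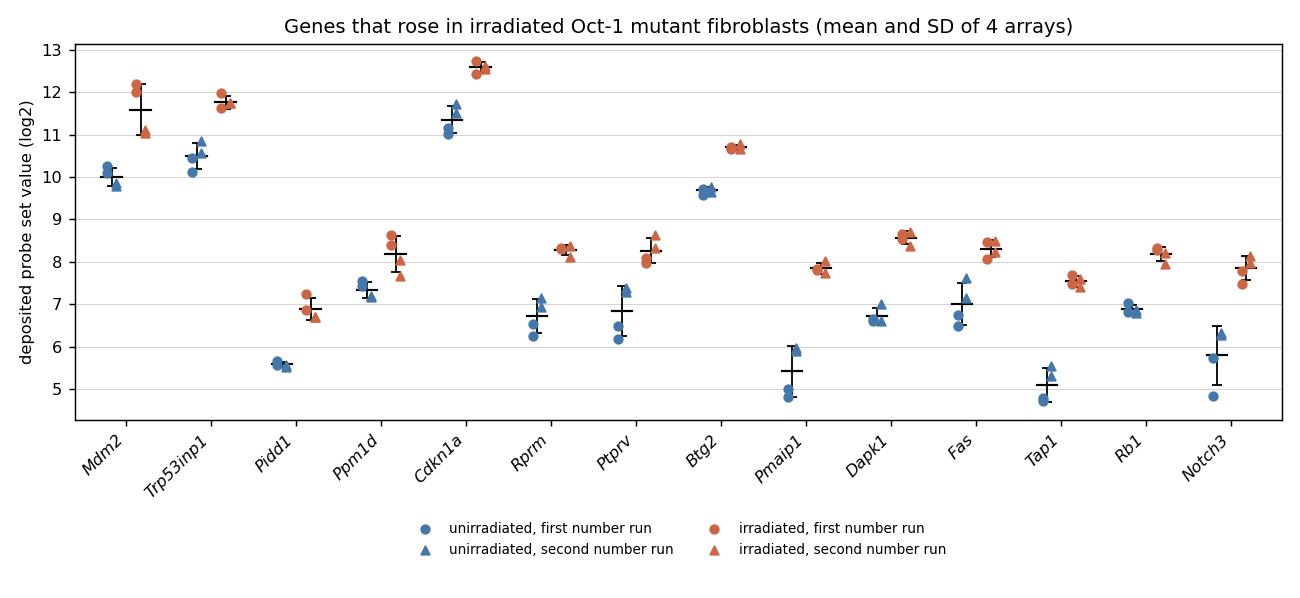
Log2 values of 14 genes, of the p53 response and, with Rb1 and Notch3, of growth and fate, in each Oct-1 mutant array of array A, with unirradiated arrays in blue and irradiated arrays in orange, circles for the first run, triangles for the second, and the mean with its SD over 4 arrays. In each gene plotted the irradiated arrays lie above the unirradiated ones, and the unirradiated arrays of Pmaip1, Ptprv and Fas separate by run.

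The longest of the p53-related lists was the one of metabolic and stress targets, in which 20 of 37 tested genes rose and 0 fell (median 0.43), with 17 called without the run block. Tap1, which carries peptides into the endoplasmic reticulum for antigen presentation and is a p53 target, read 4.71, 4.78, 5.55 and 5.31 in unirradiated and 7.47, 7.69, 7.58 and 7.40 in irradiated replicates, a rise of 2.45 (SE 0.18, adjusted p = 3.955e-08), or 5.46-fold. Dcxr, a carbonyl reductase, went from between 8.53 and 9.04 to between 10.38 and 10.68 (1.75, SE 0.07, adjusted p = 7.011e-11). Both genes had irradiated arrays far above all unirradiated ones. Dcaf4, a substrate receptor of a ubiquitin ligase, rose by 1.76 (SE 0.15), and Trim7, another ubiquitin ligase, by 2.07 (SE 0.19, array B). Ddit4l, a negative regulator of mTOR signalling, rose by 1.56 (SE 0.19) and Sesn2, a sestrin that restrains mTOR, by 0.70 (SE 0.14), while the sestrins Sesn1 (0.09) and Sesn3 (-0.21) did not pass. Of autophagy genes Ulk1, the kinase that starts it, rose by 0.97 (SE 0.11) and Dram1, a lysosomal p53 target, by 0.57 (SE 0.10). Lpin1, a phosphatidate phosphatase that also activates fatty acid oxidation, rose by 1.33 (SE 0.21), from 5.57, 6.23, 6.80 and 6.75 to 7.76, 7.79, 7.57 and 7.54. Its rise was 1.88 in the first run and 0.78 in the second. Other well known p53 targets did not pass, among them Tigar, which redirects glucose (0.11) and Rrm2b, a ribonucleotide reductase subunit (-0.05).

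The 4 p53-related lists together held 105 distinct tested genes, of which 47 rose (44.8%, against 5.83% of all genes) and 3 fell. Most of these genes were measured on array A, where 7.24% of probe sets rose. Since these lists were chosen with earlier results of the same data known, the counts describe them and support nothing further. Of the 66 rises beyond 2-fold 19 were in these lists and 42 were in none of the 36 lists. The largest change of all was 1700007K13Rik on array B, a gene known by its clone name, which went from 3.40, 3.56, 4.44 and 4.30 to 8.02, 8.36, 8.14 and 8.46 (4.32, SE 0.20, adjusted p = 5.859e-08), or 19.99-fold. All of its irradiated values were far above its unirradiated ones, which lay higher in the second run. Others among the 20 largest rises on array A were Rbm38 (1.58, SE 0.23), an RNA binding p53 target that stabilises Cdkn1a mRNA, Pard6g (1.47, SE 0.15, and 1.10 on a brighter probe set), a cell polarity protein, and Tmem19 (1.72, SE 0.12), a membrane protein. Arap2, Slc27a3, Slc25a42 and Gjb5 also rose, by 2.21, 1.80, 1.33 and 1.55. Their unirradiated mean was under 4.97, the lowest mean that the filter passed, so the size of these changes rests on low values. On array B the other tested probe sets of Arap2 (0.81 and 0.14) and Slc25a42 (-0.085) did not pass. Zfp365 (2.43, SE 0.30, and 1.91 on a brighter probe set), a p53 target that guards fragile sites, and Wnt9a (1.63, SE 0.20), a Wnt ligand, were among the 10 largest on array B. Ano3 rose there by 2.54 (SE 0.22), but its other probe set did not pass at 0.56.

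Mitotic genes made up most of the large falls. Over 6 lists of mainly mitotic genes 87 of 176 distinct tested genes fell (49.4%) and 8 rose, with a median of -0.31. Over all genes 3.77% fell, and on array A 5.3% of probe sets. In these lists were 20 of the 24 falls beyond 2-fold, beside uncalled genes such as the cargo motors Kif3a and Kif5b. These lists too were chosen with earlier results of the same data known, so the counts describe them and support nothing further. Each culture is a population, so fewer cells in mitosis and less RNA per mitotic cell cannot be told apart. Among the 27 kinases, cyclins and phosphatases that drive mitosis 21 fell and 0 rose (median -0.46). Plk1, the kinase that runs entry into and exit from mitosis, read 9.31, 9.44, 9.20 and 9.31 in unirradiated and 7.47, 7.49, 7.42 and 7.43 in irradiated replicates. Its groups were narrow and far apart in both runs. The fall was -1.86 (SE 0.07, adjusted p = 2.109e-11), or 3.63-fold, the smallest p among the named genes. Aurka, which matures centrosomes and activates Plk1, went from between 9.35 and 9.49 to between 7.46 and 7.87 (-1.75, SE 0.10, adjusted p = 2.168e-09). Cdc25b, the phosphatase that activates CDK1 at the centrosome, fell by 1.27 (SE 0.12), Bora, the activator of Aurka, by 0.97 (SE 0.15, array B), and Cks2, a CDK subunit, by 0.97 (SE 0.07).

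The cyclins and their kinase fell less than Plk1 and Aurka. Ccna2, the cyclin of S and G2 phase, fell by 0.74 (SE 0.07), from between 10.01 and 10.34 to between 9.29 and 9.63. Ccnb2, a B-type cyclin, fell by 0.54 (SE 0.08). Cdk1, the mitotic kinase itself, read 11.52, 11.48, 11.56 and 11.72 in unirradiated and 11.24, 11.44, 11.22 and 11.21 in irradiated replicates, a change of -0.29 (SE 0.07, adjusted p = 0.008928). The groups of Cdk1 do not overlap but come within 0.05 of each other. Wee1, the kinase that holds CDK1 inactive, fell too (-0.77, SE 0.12), while Pkmyt1, its partner in that role, did not pass at -0.03. Foxm1, the factor that drives many G2 genes, fell by 0.75 (SE 0.12) on its brightest probe set, but its other 2 probe sets, at -0.14 and -0.18, did not pass. The falls of Aurkb, Ccnf, Cks1b and Pbk did not survive the omission of a single array in 6 of 8 cases each (adjusted p up to 0.154), and without the run block 13 of the 21 falls were called.

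Kinesins and kinetochore genes also held falls, beside many members that did not pass. Of 20 kinesins 10 fell, 9 of them also without the run block. Kif2c, which takes apart microtubule ends at kinetochores, read 9.36, 9.49, 9.36 and 9.34 before and 7.70, 7.58, 7.78 and 7.78 after irradiation (-1.68, SE 0.11, adjusted p = 1.24e-08), with -1.76 on a dimmer probe set. Kif11, the motor that separates the spindle poles, fell by 1.33 (SE 0.14) and Kif20a, a motor of cytokinesis, by 0.96 (SE 0.07). Cargo motors of the same superfamily did not pass, with Kif5b at -0.15, Kif3a at 0.02 and Kif1b at -0.01. Among 42 kinetochore and checkpoint genes 13 fell and 1, Cenpt, rose (0.40, SE 0.09), with 2 rises without irradiated replicate 1 or 3. Cenpf, a large kinetochore protein of G2 and mitosis, went from 9.29, 9.19, 8.93 and 8.72 to 7.16, 7.33, 6.33 and 5.64 (-2.42, SE 0.16, adjusted p = 2.075e-08). The spread between its irradiated arrays was wide and followed the run, and its dim probe set on array B fell less. Bub1b, of the spindle checkpoint, changed by -1.08 (SE 0.11) on array A and by -1.22 (SE 0.10) on array B, both calls. Sgo2a, which guards centromeric cohesion, fell by 1.00 (SE 0.12) and Ndc80, which grips microtubules, by 0.62 (SE 0.11).

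The lowest median was that of the spindle and cytokinesis list, where 23 of 37 tested genes fell and 4 rose (median -0.60), with 18 and 3 called without the run block. Aspm, which organises spindle poles, read 7.83, 7.82, 7.96 and 7.89 in unirradiated and 5.29, 4.63, 5.85 and 5.27 in irradiated replicates (-2.61, SE 0.16, adjusted p = 7.874e-09), or 6.12-fold. The unirradiated arrays lay within 0.2 of each other and the irradiated ones were spread over more than 1 unit, all of them below. Aspm had 2 dim probe sets on array B that did not pass, at -0.70 and -0.16. Gas2l3, a linker of actin and microtubules, fell by 1.60 (SE 0.15) on array B and by 2.09 (SE 0.12) on a second probe set there. Depdc1a fell by 1.49 (SE 0.12) and Depdc1b by 1.59 (SE 0.23, array B), both of them proteins of mitotic cells, and Prr11, of the same cells, by 1.28 (SE 0.17, array B). Cep55, of abscission, fell by 1.12 (SE 0.09), Ect2, which directs the contractile ring, by 1.02 (SE 0.10), and Prc1, which bundles the central spindle, by 0.99 (SE 0.08). The risen members included Gtse1, a p53-induced microtubule protein that restrains p53 (0.80, SE 0.14), Ckap2, a spindle protein (0.75, SE 0.08), and Tubb4b, a tubulin (0.28, SE 0.06). Of 19 genes of anaphase and its ubiquitin ligase, the APC/C, 5 fell and 3 rose. Cdc20, the activator of the APC/C, went from between 11.41 and 11.63 to between 10.38 and 10.62, a difference of -0.995 (SE 0.07), and Espl1, the protease that cuts cohesin, fell by 0.80 (SE 0.13, array B). The 3 rises were subunits of the complex (Anapc2, Anapc5 and Anapc11, 0.21 to 0.23), and 1 of them was called without unirradiated replicate 1.

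**Figure D2:**
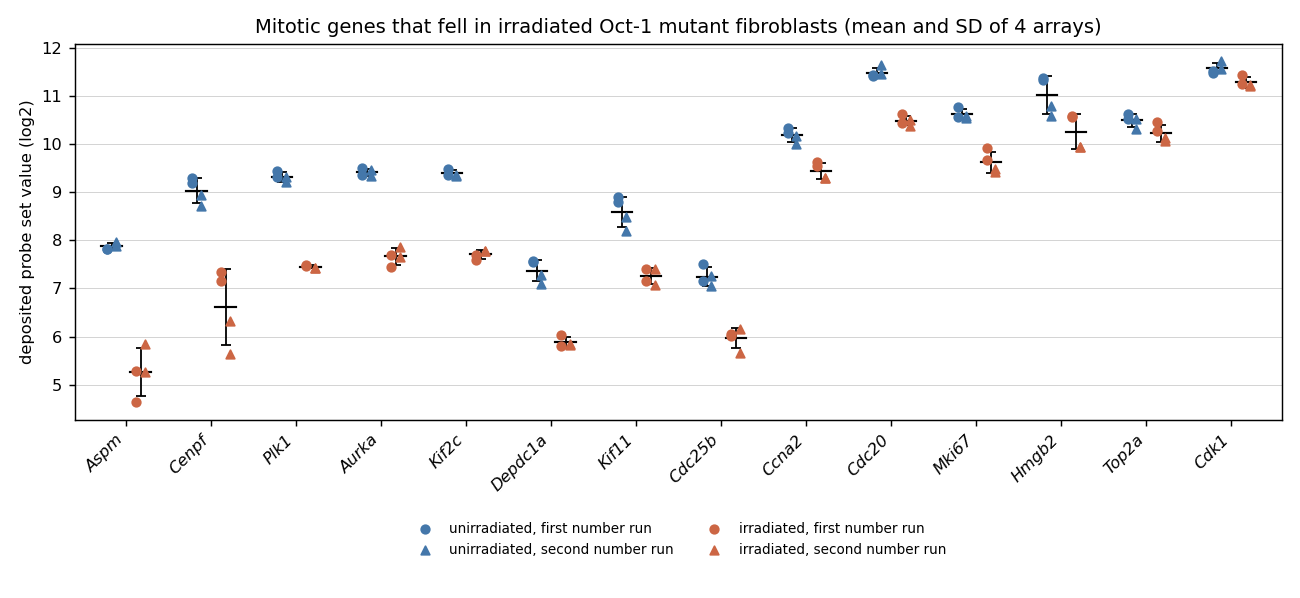
Log2 values of 14 genes of mitosis and chromosome structure in each Oct-1 mutant array of array A, with unirradiated arrays in blue and irradiated arrays in orange, circles for the first run, triangles for the second, and the mean with its SD over 4 arrays. Plk1 and Aurka show narrow groups far apart, Aspm and Cenpf wide irradiated groups, and Cdk1 and Top2a small falls of -0.29 and -0.27.

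Cells repress many mitotic genes through promoters that carry a cell cycle homology region (CHR), which the DREAM complex of pocket proteins binds close to the start of transcription, and CCAAT boxes, bound by NF-Y. The promoters of 4 genes with large falls are shown because each carries both elements near the start. They run from 170 bases before to 30 bases after the start and come from RefSeq on GRCm38.p6. Capitals mark every CHR element (TTTGAA) and CCAAT box (CCAAT) on either strand, so that TTCAAA and ATTGG are matches on the other strand. Aspm lies on the plus strand at chr1:139454603-139454802, Cenpf on the minus strand at chr1:189688057-189688256, Depdc1a on the plus strand at chr3:159495263-159495462 and Kif11 on the plus strand at chr19:37376212-37376411.
Aspm: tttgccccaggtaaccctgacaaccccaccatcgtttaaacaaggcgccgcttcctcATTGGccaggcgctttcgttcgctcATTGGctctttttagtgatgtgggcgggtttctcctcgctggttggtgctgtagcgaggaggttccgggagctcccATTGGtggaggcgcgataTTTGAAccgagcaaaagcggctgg
Cenpf: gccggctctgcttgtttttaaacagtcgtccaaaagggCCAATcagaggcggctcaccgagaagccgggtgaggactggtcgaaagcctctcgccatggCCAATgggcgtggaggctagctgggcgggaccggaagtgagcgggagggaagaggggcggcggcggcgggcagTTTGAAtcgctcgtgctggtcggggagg
Depdc1a: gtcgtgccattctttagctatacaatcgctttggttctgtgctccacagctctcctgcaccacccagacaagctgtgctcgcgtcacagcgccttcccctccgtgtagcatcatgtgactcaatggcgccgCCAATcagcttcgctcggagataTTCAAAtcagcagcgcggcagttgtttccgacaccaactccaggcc
Kif11: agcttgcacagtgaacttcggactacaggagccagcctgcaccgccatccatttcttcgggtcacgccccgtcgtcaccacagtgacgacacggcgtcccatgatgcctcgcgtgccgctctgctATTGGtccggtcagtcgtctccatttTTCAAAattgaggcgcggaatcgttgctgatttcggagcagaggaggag

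The CHR element of Aspm covers bases 7 to 12 after the start and that of Cenpf bases 3 to 8, while those of Depdc1a and Kif11 begin 16 and 19 bases before the start. Over windows of 300 bases, from 250 before to 50 after the start, at least 1 window was found for 10113 of the 12509 tested genes and for 993 of the 1200 called ones. The CHR element was in the promoter of 15 of 21 falls beyond 2-fold (71.4%), 104 of 376 falls (27.7%), 74 of 617 rises (12%) and 14.7% of the tested genes. Within the mitotic lists it was in 46 of 70 genes that fell (65.7%) and in 25 of 68 that were not called (36.8%). The uncalled members of these lists include genes outside mitosis, such as the cargo motors Kif3a and Kif5b. Among the falls outside those lists the CHR element was in 58 of 306 (19%), closer to the share of all tested genes than to that of the mitotic falls. Position differed as well: 19 of 22 CHR matches of the falls beyond 2-fold (86.4%) lay within 50 bases of the start, against 429 of 1781 (24.1%) over the tested genes. The CCAAT box was in 85.7% of the falls beyond 2-fold, 54.3% of all falls, 42.9% of the rises and 42.8% of the tested genes.

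The octamer (ATGCAAAT), the motif that Oct-1 binds, was in 1.6% of the promoters of the falls, 0.972% of those of the rises and 1.46% of those of the tested genes. A match to the searched pair of p53 sites was in 5 of 10113 (0.0494%), of which Cdkn1a was the only one that rose, and 0 fell. The last base of a CCAAT box can be the first of a CHR element, and such overlaps were kept in both counts. A match here is a string of letters in a short window, and its absence says nothing on sites farther away.

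**Figure D3:**
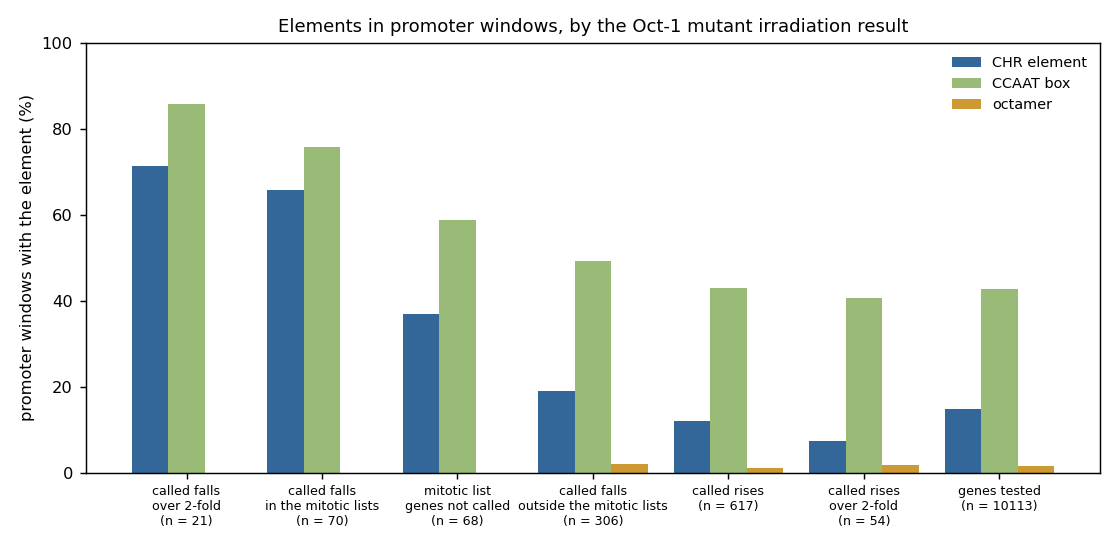
Share of genes, in percent, whose 300 base promoter window holds a CHR element, a CCAAT box or an octamer, for sets of genes grouped by their call after irradiation of Oct-1 mutant cells and for all tested genes. The CHR bar is tallest for the falls beyond 2-fold (71.4%) and for the mitotic genes that fell (65.7%), and the octamer bars are under 2% in every set plotted.

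Genes of chromosome structure fell, but by less. Of 32 tested genes 15 fell and 0 rose (median -0.22), and 4 falls were called without the run block. Mki67, the proliferation marker that coats mitotic chromosomes, read 10.77, 10.57, 10.53 and 10.59 in unirradiated and 9.67, 9.91, 9.42 and 9.48 in irradiated replicates (-0.99, SE 0.08, adjusted p = 8.877e-08). Hmgb2, a DNA bending protein, read 11.37, 11.33, 10.78 and 10.59 and then 10.59, 10.55, 9.94 and 9.94 (-0.76, SE 0.06). The Hmgb2 groups touch at 10.59 when the runs are pooled, while within the runs they were apart, with changes of -0.78 and -0.74. The cohesin subunit Rad21 fell by 0.57 (SE 0.10), the condensin subunit Ncapd2 by 0.57 (SE 0.10), the lamin Lmnb1 by 0.45 (SE 0.08) and the topoisomerase Top2a by 0.27 (SE 0.06). Other subunits of cohesin and condensin divided, with Smc2 (-0.33), Smc3 (-0.33), Stag1 (-0.42) and Ncapg (-0.43) among the falls, while Smc1a (0.15), Smc4 (-0.12) and Ncaph (-0.04) did not pass. The call of Smc3 was lost without irradiated replicates 1, 2 or 4 or unirradiated replicates 1, 2 or 3 (adjusted p up to 0.121), and a second Ncapg probe set gave -0.16. Of the 4 replication-dependent histone genes tested, 0 were called (1 fall without irradiated replicate 3).

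A minority of replication genes rose, by small amounts. In the licensing list 7 of 25 tested genes rose and 1 fell (median 0.16), with 2 rises called without the run block and 2 falls without irradiated replicate 4 or unirradiated replicate 4. Mcm7, Mcm3 and Mcm5, subunits of the replicative helicase, rose by 0.34 (SE 0.05), 0.37 (SE 0.08) and 0.41 (SE 0.07). Other array A probe sets of Mcm7 were called at 0.34 and 0.28 but not at 0.22. Those of Mcm3 were called at 0.55 and 0.59 but not at 0.13. Mcm5 did not pass on its 2 probe sets of array B (both at 0.10). The single fall was Dbf4, the activator of the kinase that fires origins, from between 9.91 and 10.11 to between 9.08 and 9.23 (-0.90, SE 0.09, adjusted p = 2.784e-06). In the list of polymerases and nucleotide supply 7 of 36 rose and 1 fell, but the rises numbered 4 without irradiated replicate 4 or unirradiated replicates 1 or 3, and the fall was lost without any of these, irradiated replicate 2 or unirradiated replicate 4. Pcna, the sliding clamp, which is also a p53 target, read 12.65, 12.71, 12.51 and 12.47 in unirradiated and 12.90, 13.10, 12.80 and 12.87 in irradiated replicates (0.34, SE 0.05, adjusted p = 0.0002815). Its groups did not overlap. Rpa2, which coats single-stranded DNA, rose by 0.45 (SE 0.08).

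The switch from G1 to S phase showed 1 large change. Rb1, the retinoblastoma pocket protein, went from 6.82, 7.02, 6.87 and 6.80 to 8.33, 8.27, 8.21 and 7.95 (1.31, SE 0.13, adjusted p = 1.34e-06), or 2.48-fold, with the groups far apart. Of the 30 genes of the Rb, E2F and DREAM list 3 rose and 2 fell (median 0.03), beside 5.83% and 3.77% of all genes. E2f1, an activating E2F factor, rose by 0.32 (SE 0.07), E2f5, a repressive one, fell by 0.48 (SE 0.11) while its brighter probe set on array B did not pass at 0.19, and Mxd3, of the Myc antagonist family, fell by 0.62 (SE 0.13). The third rise, Myc at 0.25, was lost without irradiated replicates 1 or 2 or unirradiated replicates 1, 2 or 3 (adjusted p up to 0.0806). The other pocket proteins did not pass, with Rbl1 at 0.21 and Rbl2 at -0.17. Ccnd1, the main D-type cyclin of fibroblasts, did not pass at 0.13 (SE 0.10), and read 10.90, 10.73, 10.76 and 10.64 before and 11.01, 10.65, 10.83 and 11.04 after irradiation, in overlapping groups, although its 2 dimmer probe sets rose by 0.34 and 0.36.

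DNA repair genes mostly did not pass, with a few large exceptions. Over all genes 5.83% rose and 3.77% fell. Of 32 genes of excision and mismatch repair and translesion synthesis 4 rose and 1 fell, with 2 falls without unirradiated replicate 3. Polk, a translesion polymerase, went from 7.90, 7.84, 8.32 and 7.92 to 9.27, 9.24, 9.08 and 9.01 (1.16, SE 0.14, adjusted p = 2.903e-05). Ercc5, the nuclease that cuts 3 prime of bulky lesions, went from between 6.99 and 7.38 to between 8.02 and 8.55 (1.14, SE 0.12), and Msh6, of mismatch recognition, from between 8.23 and 8.72 to between 9.24 and 9.94 (1.13, SE 0.10). For all 3 the irradiated arrays lay above the unirradiated ones. Xpc, the damage sensor of nucleotide excision repair, did not pass at -0.15, nor did Polh, the polymerase that crosses ultraviolet lesions, at -0.56 (SE 0.22). Of 29 genes of double-strand break and Fanconi repair 2 rose, Rad51d (0.52, SE 0.11), a paralog of the recombinase, and Rad54l (0.40, SE 0.11), and 0 fell, with 1 fall without unirradiated replicate 1. The second of these was lost without irradiated replicate 2 or unirradiated replicates 1, 2 or 3 (adjusted p up to 0.103). Of 23 genes of damage signalling 1 rose and 3 fell. Tipin, of the replication fork, rose by 0.28 (SE 0.06), and H2ax, the histone that is phosphorylated at breaks, fell by 0.41 (SE 0.07). Chek1, the checkpoint kinase, and Uimc1, of the BRCA1 complex, fell as well (-0.46 and -0.27), but only 1 fall was left without irradiated replicates 2, 3 or 4 or unirradiated replicates 2 or 3. Chek1 did not pass on its other probe sets, at -0.16 (array A) and -0.08 (array B). The kinases Atm and Atr did not pass at -0.19 and -0.24.

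Some developmental regulators of the fibroblasts fell. Of 18 tested Hox genes, which mark position along the body, 4 fell and 0 rose (median -0.22). Hoxa10 went from 6.54, 6.48, 6.19 and 5.99 to 5.50, 5.20, 5.24 and 4.99 (-1.06, SE 0.13, adjusted p = 1.751e-05), with no overlap, but its dim probe set on array B did not pass at -0.25. Hoxa9 fell by 0.66 (SE 0.13) and Hoxc8 by 0.51 (SE 0.08), and 3 Hox falls were called without the run block. Of 34 mesenchymal patterning factors 11 fell and 0 rose (median -0.14). Tbx15, a T-box factor of limb and trunk mesenchyme, went from between 8.98 and 9.16 to between 8.35 and 8.51 (-0.70, SE 0.08, adjusted p = 7.496e-06). Foxc1 fell by 0.61 (SE 0.13), and Prrx1 and Twist1, which also mark fibroblasts, by 0.38 (SE 0.06) and 0.44 (SE 0.10). Other Prrx1 probe sets were called at -0.60 (array A) and -0.62 (array B), or did not pass at -0.05 and -0.29 (array A) and 0.005 (array B). This list kept 7 falls without unirradiated replicate 1 or 2, and 5 were called without the run block.

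Receptors moved in both directions. Notch3 read 4.84, 5.74, 6.27 and 6.32 in unirradiated and 7.49, 7.79, 8.13 and 7.98 in irradiated replicates (2.06, SE 0.23, adjusted p = 7.361e-06), or 4.16-fold, and Notch1 rose by 0.83 (SE 0.14). Notch2 fell (-0.65, SE 0.14), with overlapping groups. The direct Notch targets Hes1 (-0.04), Hey1 (-0.19) and Heyl (0.06) did not pass. Fzd2, a receptor for Wnt ligands, fell by 0.74 (SE 0.07) and by 1.03 (SE 0.12) on its second probe set. Over the 38 Notch and Wnt genes 2 rose and 4 fell, beside 5.83% and 3.77% of all genes. In that list 2 falls were left without irradiated replicate 4 or unirradiated replicate 2. Among 40 growth factor receptors 10 fell and 4 rose (median -0.10), of which 2 and 2 were called without the run block. Pdgfra, the receptor that marks mesenchymal fibroblasts, went from 9.79, 9.71, 9.45 and 9.54 to 9.02, 8.82, 8.83 and 8.82 (-0.75, SE 0.12, adjusted p = 0.0003171). Another Pdgfra probe set on array A was called at -0.51, while the one on array B did not pass at -0.18. Pdgfrb fell by 0.61 (SE 0.08), with -0.28 on a probe set that did not pass, and Lgr4, which amplifies Wnt signals, by 0.58 (SE 0.07, array B). Epha2, an ephrin receptor and p53 target, rose by 0.66 (SE 0.10) and Egfr, the receptor for epidermal growth factor, by 0.57 (SE 0.10). The fall of Pdgfra, Pdgfrb, Prrx1 and Twist1 makes up all 4 falls among the 17 fibroblast markers.

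**Figure D4:**
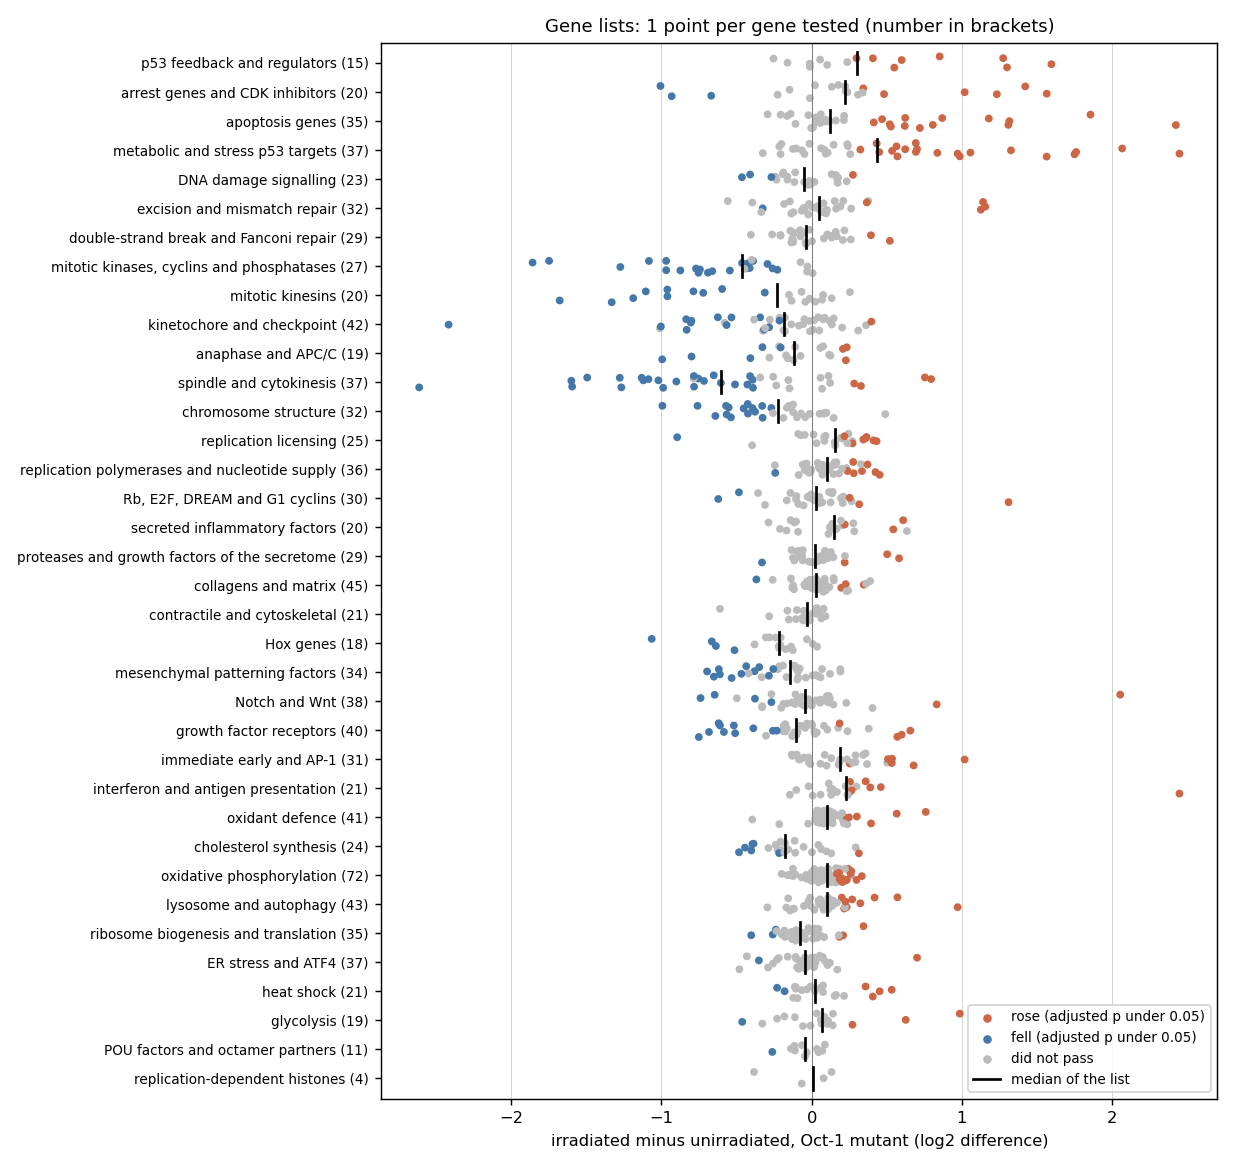
Log2 change after irradiation of Oct-1 mutant cells for every tested gene of the 36 lists, with genes that rose in orange, genes that fell in blue, the others in grey and a black line at each list's median. The p53-related lists reach to 2.45 and the mitotic lists to -2.61, while lists such as matrix and contractile genes lie around 0.

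Secreted factors and early response genes rose in small numbers. Over all genes 5.83% rose and 3.77% fell, and the shares of proteases and growth factors were not far from these. Of 20 inflammatory factors 3 rose and 0 fell (median 0.15), with 1 fall without irradiated replicates 1 or 3 or unirradiated replicates 1 or 4. Lif, a cytokine of the interleukin 6 family and a p53 target, went from between 6.17 and 6.41 to between 6.66 and 7.14 (0.61, SE 0.12, adjusted p = 0.001904), and Ptges, a prostaglandin synthase, rose by 0.54 (SE 0.10). Mif, a cytokine with oxidoreductase activity, rose by 0.22 (SE 0.05). The chemokines Ccl2 (0.17) and Cxcl1 (0.14) did not pass, and Cxcl12 did not on its brightest probe set (-0.17) but fell on a dimmer one (-0.49, SE 0.07). Il6 itself was under the filter and not tested, with 5.37, 5.58, 5.95 and 5.54 in unirradiated and 4.98, 4.59, 4.83 and 4.83 in irradiated replicates. Of 29 proteases and growth factors 3 rose and 1 fell, with Hbegf, a ligand of Egfr, at 0.58 (SE 0.11), the gelatinase Mmp2 at 0.50 (SE 0.09) and the plasminogen activator Plat at -0.33 (SE 0.06). Of 31 immediate early and AP-1 genes 6 rose and 0 fell (median 0.19), led after Btg2 by Fosl1, an AP-1 subunit, from between 8.34 and 8.64 to between 9.02 and 9.30 (0.68, SE 0.08). The Krueppel-like factors Klf10 and Klf4 rose by 0.54 (SE 0.09) and 0.53 (SE 0.10). Fos (0.10), Jun (0.13) and Egr1 (0.19) did not pass. Of 21 genes of interferon response and antigen presentation 7 rose and 0 fell, but 3 were called without irradiated replicate 4 or unirradiated replicate 3 and 4 without unirradiated replicate 1. Apart from Tap1 the change of this list that held under each omission was that of Psme1, a proteasome activator, at 0.25 (SE 0.06).

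Metabolic genes shifted by small amounts that depended on the arrays kept. In oxidative phosphorylation 16 of 72 tested genes rose and 0 fell (median 0.10), but 8 rose without irradiated replicate 2, 6 without unirradiated replicate 1 or 3, and 3 without the run block, with 1 fall without unirradiated replicate 4. Ndufv1, a core subunit of complex I, rose by 0.33 (SE 0.06), from between 10.22 and 10.44 to between 10.52 and 10.75. In oxidant defence 6 of 41 rose and 0 fell, with 2 left without irradiated replicate 2 or unirradiated replicate 3 and 3 without unirradiated replicate 1. Gss, which makes glutathione, rose by 0.76 (SE 0.11) and Hmox1, which breaks down haem, by 0.57 (SE 0.11). Hmox1 read 9.04, 9.11, 9.33 and 8.86 before and 9.53, 10.05, 9.48 and 9.55 after, with 1 irradiated array above the rest. Nqo1 (0.08), Gclm (0.02) and Txnrd1 (0.08), standard targets of NRF2, the oxidant-sensing factor, did not pass. Of 24 cholesterol genes 6 fell and 1 rose (median -0.18), with Sqle, an early oxygenase of the pathway, at -0.39 (SE 0.05), from between 10.25 and 10.36 to between 9.89 and 9.97, and Hmgcs1, at its start, at -0.48 (SE 0.11). The rise was lost on 6 of the 8 omissions of 1 array, all but those of irradiated replicate 4 and unirradiated replicate 4, and without the run block 2 falls were called. Of 43 lysosome and autophagy genes 9 rose and 0 fell (median 0.10, 3 without the block), including the protease Ctsd (0.32, SE 0.05). Ldhb, a lactate dehydrogenase subunit, rose by 0.99 (SE 0.11), and Hk2, the inducible hexokinase, fell by 0.46 (SE 0.09).

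The lists below are set beside the 9.59% of all genes that were called. Most of their genes were measured on array A, where 12.5% of probe sets were called. The heat shock and ribosome lists held larger shares, but without the run block they kept 1 and 0 rises, with 0 falls in either. Of 45 collagen and matrix genes 3 rose and 1 fell, and 0 of the 4 calls held whichever array was left out; without irradiated replicates 2 or 3 or unirradiated replicates 1 or 3 there were 0 rises. Col1a1 (0.12), Fn1 (-0.04) and Postn (-0.13) did not pass. Of 21 contractile and cytoskeletal genes 0 were called (1 fall without irradiated replicate 1), with Acta2, the actin of activated fibroblasts, at 0.03. Of 37 genes of the endoplasmic reticulum stress and ATF4 response 1 rose, Sesn2, and 1, Herpud1, fell, the latter lost without irradiated replicates 1, 2 or 4 or unirradiated replicates 1 or 2, while 2 fell without irradiated replicate 3 or unirradiated replicate 3. Of 35 genes of ribosome biogenesis and translation 3 rose and 3 fell, but 1 rose without irradiated replicates 1 or 2 or unirradiated replicates 1 or 2, and 1 fell without irradiated replicate 1 or unirradiated replicate 2. Of 21 heat shock genes 4 rose, including Dnajb1 (0.41, SE 0.07), a co-chaperone, and 2 fell, 1 of them lost without irradiated replicates 1 or 4 or unirradiated replicates 1, 2 or 3. Of 11 tested POU factors and partners of Oct-1, 0 rose and 1, Hcfc1, fell by 0.26, a call lost without irradiated replicate 1, irradiated replicate 4 or unirradiated replicate 3 (adjusted p up to 0.0766).

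The effect within each run is given as a description. Among the 66 rises beyond 2-fold 54 were larger in the first run, with a median of 1.41 against 1.14. In these genes the unirradiated arrays of the second run were higher than those of the first by a median of 0.13 and the irradiated ones lower by 0.19. Among the 24 falls beyond 2-fold 18 were larger in the first run (median -1.29 against -1.21). Calls of every size leaned the same way, with 512 of all 729 rises and 303 of all 471 falls larger in the first run. Tested gene by gene, the effect differed between the runs for 0 probe sets on array A (677 at an unadjusted p under 0.05, 4.99%) and for 1 on array B (0.0074%, with 795 unadjusted, 5.89%), a dim probe set of Inka2, at 1.81 in the first run and 0.10 in the second (adjusted p = 0.009554, limma). This test was added after the data were seen. The sources used here do not say what the title numbers stand for.

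Set against wild type, the mutant response differed for 0 probe sets on either array after adjustment in limma, with 387 (2.85%) and 398 (2.95%) at an unadjusted p under 0.05, and 0 under each alternative tried. A p that misses the threshold does not show that the genotypes respond alike. Of the 1200 genes called in the mutant 1184 had the same sign in wild type, and 720 were called there in the same direction, which is 60% of the mutant calls and 69.0% of the 1043 wild type calls (8.34% of genes, 5.08% rises and 3.25% falls). No gene was called in opposite directions. The smallest p for a difference on array A was that of Ptprv, whose mutant values are given above. In wild type it read 4.65, 4.44, 5.04 and 4.90 in unirradiated and 5.06, 4.89, 4.79 and 5.01 in irradiated replicates, in overlapping groups around the filter mark of 4.97, so that its effect there was 0.18. The difference between the effects was 1.24 (SE 0.23, unadjusted p = 4.842e-05, adjusted p = 0.6574). All 8 mutant values, irradiated or not, were above all 8 wild type values.

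Other genes at the top of this ranking did not pass adjustment either. Klf4 rose by 0.60 in the mutant and by 1.23 in wild type on its dimmer probe set (unadjusted p = 0.0005181), and by 0.53 and 0.84 on its brighter one. Trim16, a ubiquitin ligase, rose by 0.90 in the mutant against 0.13 in wild type (unadjusted p = 0.0007088), but its second probe set did not pass in the mutant at 0.07. On array B Ddx58, the viral RNA sensor RIG-I, changed by -0.31 in the mutant and by 0.21 in wild type (unadjusted p = 5.609e-05, adjusted p = 0.7577), and the mutant call did not survive 5 of the 8 omissions of a single array (adjusted p up to 0.09326).

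**Figure D5:**
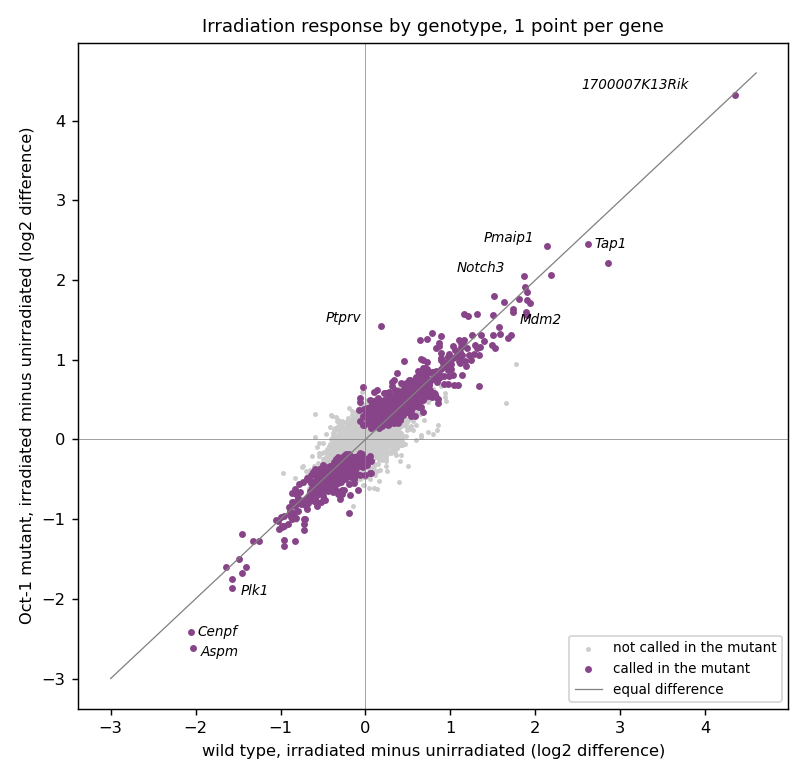
Log2 change after irradiation in wild type (horizontal axis) and in Oct-1 mutant fibroblasts (vertical axis) for 12509 genes, 1 point per gene, with the diagonal of equal change. Most genes that moved far lie near the diagonal, with Ptprv above it (0.18 in wild type, 1.42 in the mutant).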

How the data were processed

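Expression was measured in 16 Oct-1 mutant and 16 wild type samples. The deposited values are 1 number per probe set, summarised and scaled by the authors with a method that the labels leave unstated, and the log2 scale was inferred from the values, which run from 0.265 to 15.75 (array A) and from 0.097 to 15.51 (array B). Array medians were 6.16 to 6.28 and 3.67 to 3.78, so a shift common to all genes could not be seen. The number of arrays limits the precision.

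Control probe sets (64 per array) and probe sets whose mean was under the 40th percentile of their array were left out. Of 22690 and 22575 probe sets, 20380 and 14661 name 1 gene and 691 and 245 several. The platform annotation can be old, and symbols were updated through RefSeq for 20351 and 14486. A gene was represented by its tested probe set of highest mean, on array A where tested there.

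The effect was estimated on each array from all 16 samples with limma 3.58.1 (R 4.3.3, trended variance), 4 group means and the run as a block, with Benjamini-Hochberg adjustment over the array. All p-values of single genes are from this fit. Same-numbered samples deviated together from their group means (correlations 0.36 to 0.72 on array A, 0.24 to 0.52 on array B). Other samples of the same run did so in overlapping ranges (0.24 to 0.58 and 0.2 to 0.38), unlike samples of different runs (-0.68 to -0.27 and -0.44 to -0.18). Within runs, the difference between replicates correlated between the mutant groups at 0.27 (first) and -0.02 (second) on array A. On array B these correlations were 0.18 and -0.04. The run was therefore the block, and the replicate number was a block only in an alternative.

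Genes were named by rule: the 20 largest rises and falls of array A and 10 of array B with non-overlapping groups, up to 4 called members per list by adjusted p (all where 6 or fewer), preset genes of each pathway, and the 5 smallest p in each direction of the genotype difference. Other list members given with a value are examples. The groups, lists and genes were chosen with earlier results of these data known. The fitting code was tested on simulated data. Alternatives covered the block, samples, filter, scaling, variance model, array weights, low values and omission of each mutant array. Motifs were searched on both strands of RefSeq promoters (GRCm38.p6).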

Additional observations from a re-analysis of the deposited data

Results flagged for a closer look

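In 17 of 418 groups of 4 arrays 1 array stood apart from the other 3, with a gap to the nearest of them above Dixon's critical value relative to the range, where chance gives about 5% of groups. They were spread over the replicates, with 1 to 3 in each. All values are log2.

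Among genes of mitosis and replication, Cdk1 was higher in irradiated replicate 2 (11.44) than in the others (11.21 to 11.24). Depdc1a was higher in the same replicate (6.04, others 5.80 to 5.84). Kif2c was higher in unirradiated replicate 2 (9.49, others 9.34 to 9.36). Prr11 on array B was higher in irradiated replicate 3 (5.58, others 5.26 to 5.29). Dbf4 was lower in unirradiated replicate 4 (9.91, others 10.09 to 10.11). E2f5 was lower in irradiated replicate 3 (7.82, others 8.02 to 8.04).

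Among repair and p53-related genes, Polk was higher in unirradiated replicate 3 (8.32, others 7.84 to 7.92). Rad54l was lower there (6.02, others 6.58 to 6.64). Dapk1 was higher there (7.0, others 6.59 to 6.66). Ulk1 was lower in irradiated replicate 4 (7.83, others 8.01 to 8.04). Tmem19 was lower in unirradiated replicate 2 (7.23, others 7.78 to 7.89).

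Among receptors and other genes, Pdgfra was higher in irradiated replicate 1 (9.02, others 8.82 to 8.83). Fzd7, a Wnt receptor, was lower in unirradiated replicate 1 (8.79, others 9.05 to 9.07). Gjb5, a connexin, was lower in the same replicate (4.32, others 4.63 to 4.69). Hmox1 was higher in irradiated replicate 2 (10.05, others 9.48 to 9.55). Ifi35, an interferon-induced protein, was lower in irradiated replicate 3 (7.79, others 7.97 to 8.01). Scai on array B, a regulator of cell migration, was lower in irradiated replicate 4 (4.77, others 4.99 to 5.02).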

How the results depend on the processing

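The number of called probe sets on array A was 632 without the run block, 705 in the first run alone and 349 in the second, against 1702. On array B it was 92 without the run block, 89 in the first run, 8 in the second and 81 with the mutant arrays only, against 225. Leaving out 1 mutant array gave between 1194 and 1790 calls for array A and between 145 and 297 for array B. With the replicate number as the block in place of the run, array A gave 1736 calls (999 rises and 737 falls) and array B 201 (140 and 61). That block changed no count by over 1.5 times, and 7 of 208 named probe sets lost their call with it. Other alternatives kept both totals within 1.5 times of those reported. On array B, however, quantile normalization gave 171 rises and 126 falls and array weights 153 and 110, against 155 and 70. No result turned its direction under the alternatives run. Of the 208 named probe sets 70 lost their call without the run block, 64 in the first run alone, 105 in the second, 31 with mutant arrays only, and 6 to 25 on leaving out 1 array. The difference between genotypes was called for 0 probe sets under each alternative. With 4 arrays per group the median SE was 0.0911 on array A and 0.0877 on array B, which limits what small changes can be seen. Of 195 called probe sets named, 116 had another tested probe set of the gene, and for 28 none moved at least 50% as far.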

Other observations

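The following genes are in none of the lists and were chosen after their values were seen. Inhbb, which encodes the beta B subunit of activin and inhibin, read 8.05, 8.13, 8.22 and 8.06 in unirradiated and 9.41, 9.34, 9.37 and 9.20 in irradiated mutant replicates, a rise of 1.21 (SE 0.07, adjusted p = 3.51e-09, limma) with narrow groups. Acad11, an acyl-CoA dehydrogenase, rose by 1.31 (SE 0.16), Zfp385a, a zinc finger protein that acts with p53, by 1.15 (SE 0.13) and Ptk2b, a focal adhesion kinase relative, by 1.06 (SE 0.16). Terf1, which binds telomere repeats, fell by 0.81 (SE 0.12), Ptch1, the Hedgehog receptor, by 0.82 (SE 0.17) and Nr2f1, an orphan nuclear receptor, by 0.84 (SE 0.20).

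In unirradiated mutant replicate 4 on array A 2 abundant genes stood far above the other replicates. Myh9, a non-muscle myosin, was at 14.64 there and between 12.63 and 12.68 in the other 3, and its change of -0.61 (SE 0.29) did not pass. Sod1, a superoxide dismutase, was at 12.98 there and between 11.03 and 11.45 in the other 3, with a change of -0.40 (SE 0.27) that did not pass.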
